A study of Canis lupus familiaris with 33 samples.

Results

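Interferon-stimulated genes are described here in canine invasive urothelial carcinoma (iUC), a cancer of the bladder lining, and in normal canine bladder mucosa. The members were 38 listed symbols of interferon-induced antiviral effectors and regulators, and 30 of them were found by symbol among the 25096 genes of the TMM-normalized table. All 30 passed the filter on low values and were tested. STAT2, OASL and PLSCR1 were found only through the Entrez ID of their gene and are given apart from the counts. IRF7, CMPK2, SAMD9, PARP10 and SP100 were not analysed here.

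Tissue came from 29 treatment-naive dogs, each giving 1 high-grade tumor by cystoscopic biopsy, and 4 samples of mucosa were dissected from the bladder wall of dogs euthanized for conditions outside the bladder. The groups are labelled invasive urothelial carcinoma (29 tumors) and normal urothelial cells (normals A to D). The tumor-bearing dogs could be of any age, sex or breed, the labels give none of these for the normals, and no genotype, drug, dose or time point divides the samples. Total RNA was depleted of ribosomal RNA and sequenced in a single batch.

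Interferons are secreted signals that cells release on sensing viral or misplaced nucleic acid. Type I, II and III interferons bind separate receptors, whose JAK kinases activate STAT proteins. STAT2 and IRF9 act in a complex that switches on antiviral genes, while IRF1 carries much of the response to interferon gamma. The induced genes include sensors of RNA, enzymes that degrade or edit RNA, the ubiquitin-like protein ISG15, membrane proteins that hold virus particles, and proteasome subunits that supply peptides for antigen presentation.

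The values are log2 normalized levels, centred gene by gene on the median across the 33 samples, so 0 marks the gene's median and levels cannot be compared between genes. They do not give library totals. As a stand-in for depth, 755 to 1019 genes per normal (median 812.5) and 3699 to 8175 genes per tumor (median 6876) lay at a lowest value that several samples share. The normals carried the smooth muscle markers ACTG2, MYH11, TAGLN and TPM2 at a mean relative log2 level of 5.29 to 7.28, above every tumor (-1.19 to 4.07), and the 4 fibroblast markers at 2.56 to 3.25 against -2.31 to 2.32. All 4 smooth muscle and all 4 fibroblast markers were called lower in the tumors. Of 6 urothelial markers, UPK3A and EPCAM were called higher and KRT20 lower, and none of 4 endothelial markers was called. Of 5 genes listed for plasmacytoid dendritic cells only TCF4 was in the table, and it was not called. A single gene cannot give the level of these cells. The mucosa labelled as urothelial cells was richer in these muscle and connective tissue RNAs than the tumors, and their part in the group differences was not tested. The median change over all 24471 tested genes was -0.84 on the log2 scale.

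Most interferon-stimulated genes were higher in the tumors than in the normal mucosa. Of the 30 members, 22 were called higher (limma, Benjamini-Hochberg adjusted p of at most 0.05 and at least 2-fold), 1 was called lower, 3 passed the adjusted p but changed less than 2-fold, and 4 did not pass the adjusted p. Over all tested genes the call rate was 10.7% higher and 45.8% lower, and the median change of the members was 1.89 on the log2 scale. Among the 18418 genes with a median above the lowest value, or with no shared lowest value, it was 14.1% higher and 30.1% lower. The median change of these 18418 genes was -0.01, and with them alone 22 members were again higher and 1 lower. In 11 members every tumor lay above every normal, against 7.63% of all genes. The largest rises were those of RSAD2, ISG20 and ISG15, between 11.4- and 15.3-fold, and the fall was that of IFI6. In bulk tissue, fewer cells of a type and less RNA per cell cannot be told apart.

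The size of these rises depended on what the samples were scaled to. When each sample was centred on the mean of the 5 urothelial markers without a shared lowest value (UPK1A, UPK2, UPK3A, GATA3 and EPCAM), a setting chosen after the smooth muscle genes of the normals had been seen, these markers having been 1.01 log2 units higher in the tumors, 6 members remained higher and 1 lower, the call rate over all genes was 1.23% higher and 59.4% lower, and the median of the members was 0.88 against -1.85 for all genes. The 6 members that kept their call were RSAD2, ISG15, ISG20, OAS3, SAMD9L and UBA7, while ADAR, TRIM25 and LGALS3BP passed the adjusted p (0.0477, 0.0281 and 0.0271) at less than 2-fold, and STAT2, OASL and PLSCR1 lost their calls. This depended on leaving out KRT20, the urothelial marker called lower in the tumors (log2 -3.75), which 9 tumors have at its lowest value. With all 6 urothelial markers, a setting also chosen after the values were seen, the markers differed by 0.21, 20 members were higher and 1 lower (6.25% and 46.5% of all genes), IRF9 and PSME1 fell under 2-fold, and IRF8 stood at -0.03. In what follows the urothelial centring is that on 5 markers. With the DESeq-normalized table, whose median change over all genes was -1.11, 19 members were higher and IRF9, PARP12 and PSME1 fell under the fold threshold.

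**Figure D1:**
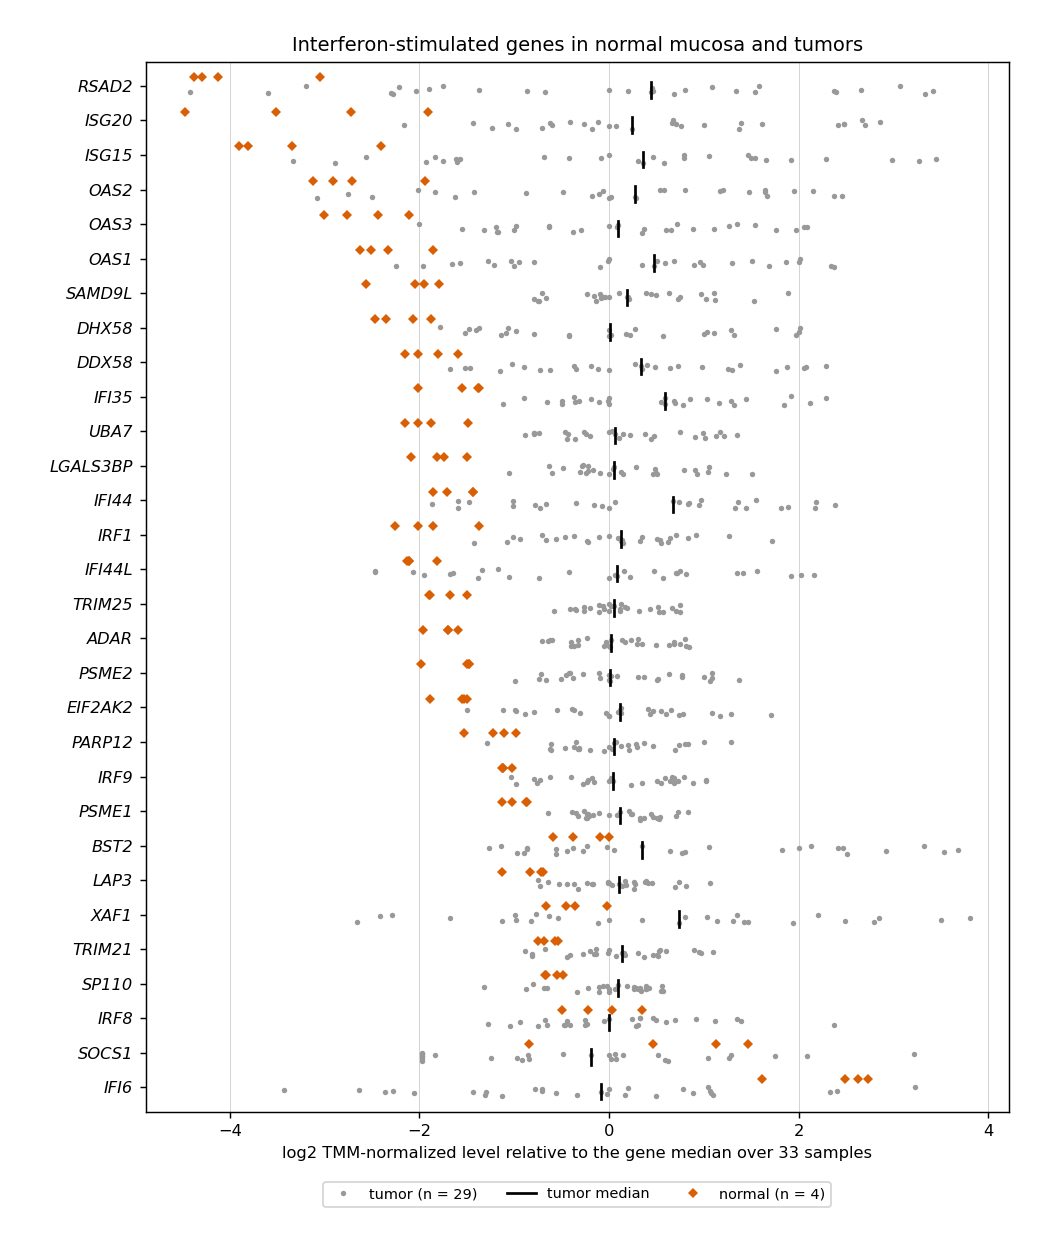
Log2 TMM-normalized level of the 30 members, relative to the gene median over 33 samples (x axis), with 29 tumors as gray points, the tumor median as a black bar and the 4 normals as orange diamonds; genes are ordered by the tumor minus normal difference. The normals lay left of most tumors for the 22 genes called higher, from RSAD2 to PSME1, and also for LAP3, TRIM21, SP110, XAF1 and BST2. For IFI6 the normals lay right of 26 of 29 tumors.

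The RNA sensors and RNA-acting enzymes were called higher in 7 of 7 members. DDX58 encodes RIG-I, the sensor of viral RNA ends, and had log2 values of -1.59, -2.02, -1.81 and -2.15 in normals A to D and of -1.68 to 2.29 (median 0.34) in the tumors. DHX58 encodes LGP2, which modulates RIG-I signalling, and had -1.88, -2.07, -2.47 and -2.35 in the normals and -1.78 to 2.01 (median 0.02) in the tumors. For DHX58 the groups did not overlap, and for DDX58 28 of 29 tumors lay above every normal. The rises were 4.51-fold for DDX58 (log2 2.17, SE 0.57, adjusted p = 0.0011) and 4.71-fold for DHX58 (log2 2.24, SE 0.58, adjusted p = 0.00104). EIF2AK2 encodes the kinase PKR, which halts translation on binding double-stranded RNA, and read -1.53, -1.55, -1.50 and -1.89 in the normals and -1.49 to 1.71 (median 0.12) in the tumors. ADAR, the enzyme that edits adenosine to inosine in double-stranded RNA, read -1.70, -1.59, -1.70 and -1.96 in the normals and -0.70 to 0.85 (median 0.02) in the tumors. Neither gene overlapped between the groups, EIF2AK2 by a narrow margin. EIF2AK2 was 3.25-fold higher (log2 1.70, SE 0.39, adjusted p = 0.000266) and ADAR 3.54-fold higher (log2 1.82, SE 0.25, adjusted p = 1.02e-07).

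The oligoadenylate synthetases make the messenger that activates RNase L, and their genes OAS1, OAS3 and OAS2 lie next to each other in the RefSeq gene order. OAS1 values were -1.85, -2.51, -2.33 and -2.63 in normals A to D and -2.25 to 2.37 (median 0.47) in the tumors. OAS2 values were -1.95, -3.12, -2.92 and -2.72 in the normals and -3.08 to 2.46 (median 0.27) in the tumors. OAS3 values were -2.11, -2.44, -3.01 and -2.77 in the normals and -2.0 to 2.09 (median 0.09) in the tumors. Every tumor exceeded every normal for OAS3, 27 of 29 did for OAS1 and 25 of 29 for OAS2, with normal A the highest of the normals in each. The tumors were 5.91-fold higher for OAS1 (log2 2.56, SE 0.68, adjusted p = 0.00115), 6.91-fold for OAS2 (log2 2.79, SE 0.78, adjusted p = 0.00209) and 6.67-fold for OAS3 (log2 2.74, SE 0.59, adjusted p = 0.000113). These genes are paralogs, and how reads shared between copies were counted is not given in the sources used here. OASL, found by Entrez ID under the symbol Oasl1, was higher by 2.16 (SE 0.95, adjusted p = 0.0428), a call that was lost when any one normal was left out (adjusted p = 0.0722 to 0.0985).

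ISG15 was grouped with its activating enzyme UBA7 and the ligases TRIM25 and TRIM21, and 3 of these 4 members were called higher. ISG15, the ubiquitin-like modifier itself, had log2 values of -2.41, -3.34, -3.81 and -3.90 in normals A to D and of -3.34 to 3.45 (median 0.36) in the tumors. UBA7 had -1.48, -1.88, -2.01 and -2.16 in the normals and -0.89 to 1.35 (median 0.07) in the tumors. TRIM25, a ligase that also modifies RIG-I, had -1.50, -1.89, -1.68 and -1.90 in the normals and -0.58 to 0.75 (median 0.05) in the tumors. The groups did not overlap for UBA7 and TRIM25, and 26 of 29 tumors lay above every normal for ISG15, whose normal A was high among the normals. The rise was 11.4-fold for ISG15 (log2 3.51, SE 0.92, adjusted p = 0.00107), 4.05-fold for UBA7 (log2 2.02, SE 0.35, adjusted p = 5.39e-06) and 3.62-fold for TRIM25 (log2 1.85, SE 0.20, adjusted p = 4.88e-10), the lowest adjusted p of the members. TRIM21, a ligase that binds antibody inside cells, read -0.74 to -0.53 in the normals and -0.89 to 1.10 (median 0.14) in the tumors, of which 25 lay above every normal and 3 below. TRIM21 differed by 0.75 (SE 0.28, adjusted p = 0.0173), under 2-fold, and by -0.26 with the urothelial centring. It no longer passed the adjusted p without normal D (0.0523) or in the DESeq-normalized table (0.156).

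Of the 10 antiviral effectors, 7 were called higher and 1 lower. RSAD2 encodes viperin, which makes a nucleotide that stops viral polymerases, and had log2 values of -3.05, -4.38, -4.29 and -4.13 in normals A to D and of -4.42 to 3.42 (median 0.44) in the tumors. ISG20, a nuclease of single-stranded RNA, had -2.73, -3.52, -4.48 and -1.91 in the normals and -2.17 to 2.86 (median 0.25) in the tumors. SAMD9L, a restriction factor of poxviruses, had -1.79, -1.95, -2.04 and -2.57 in the normals and -0.79 to 1.89 (median 0.19) in the tumors. Only SAMD9L of these 3 was free of overlap; 28 of 29 tumors exceeded every normal for ISG20 and 26 of 29 for RSAD2, where 1 tumor lay below every normal. RSAD2 was 15.3-fold higher (log2 3.94, SE 1.07, adjusted p = 0.00153), ISG20 12.6-fold (log2 3.65, SE 0.71, adjusted p = 2.9e-05) and SAMD9L 5.07-fold (log2 2.34, SE 0.35, adjusted p = 4.25e-07).

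IFI44 and IFI44L, adjacent paralogs, and IFI35, a protein with interferon-induced expression that binds the signalling partner NMI, were each called higher. IFI44 read -1.43, -1.71, -1.44 and -1.85 in normals A to D and -1.87 to 2.39 (median 0.68) in the tumors. IFI44L read -1.81, -2.11, -2.13 and -2.11 in the normals and -2.47 to 2.16 (median 0.09) in the tumors. IFI35 read -1.38, -2.01, -1.37 and -1.55 in the normals and -1.12 to 2.29 (median 0.59) in the tumors. IFI35 did not overlap, while for IFI44 and for IFI44L 25 of 29 tumors lay above every normal. The rises were 3.87-fold for IFI44 (log2 1.95, SE 0.63, adjusted p = 0.00632), 3.80-fold for IFI44L (log2 1.93, SE 0.68, adjusted p = 0.0127) and 4.19-fold for IFI35 (log2 2.07, SE 0.46, adjusted p = 0.000195). PARP12, a mono-ADP-ribosyltransferase, read -1.10, -1.22, -0.98 and -1.53 in the normals and -1.29 to 1.28 (median 0.05) in the tumors, and was 2.42-fold higher (log2 1.27, SE 0.29, adjusted p = 0.00024). In 28 of 29 tumors PARP12 lay above every normal. PLSCR1, a phospholipid scramblase found by Entrez ID, was higher by 2.34 (SE 0.68, adjusted p = 0.00293).

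IFI6, a small protein of the endoplasmic reticulum and mitochondria, was the member that ran the other way. Its log2 values were 2.49, 1.61, 2.63 and 2.74 in normals A to D and -3.43 to 3.23 (median -0.08) in the tumors. Below every normal lay 26 of 29 tumors, and 1 lay above every normal. IFI6 was 6.0-fold lower in the tumors (log2 -2.59, SE 0.77, adjusted p = 0.00358), and this call held in every alternative tried. XAF1, a pro-apoptotic protein, and BST2 (tetherin), which holds budding virus at the membrane, did not pass the adjusted p. XAF1 differed by 0.86 (SE 0.87, adjusted p = 0.376) and spanned -2.66 to 3.80 in the tumors around normals of -0.66 to -0.02. BST2 differed by 1.03 (SE 0.77, adjusted p = 0.233) and spanned -1.27 to 3.68 around normals of -0.60 to 0.00. For both genes some tumors lay below every normal, 9 for XAF1 and 6 for BST2, and more lay above, 17 and 16. With the urothelial centring the difference of XAF1 was -0.14.

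Of the 4 signalling and transcription factors, 2 were called higher. IRF1, a transcription factor downstream of interferon gamma, had log2 values of -1.86, -1.38, -2.02 and -2.26 in normals A to D and of -1.43 to 1.72 (median 0.12) in the tumors. IRF9, the DNA-binding part of the complex with STAT2, had -1.03, -1.12, -1.13 and -1.12 in the normals and -1.03 to 1.02 (median 0.04) in the tumors. For each, 28 of 29 tumors lay above every normal. IRF1 was 3.83-fold higher (log2 1.94, SE 0.37, adjusted p = 2.69e-05) and IRF9 2.30-fold higher (log2 1.20, SE 0.32, adjusted p = 0.00113). STAT2, found by Entrez ID, read -1.77 to -1.23 in the normals and -0.68 to 1.49 in the tumors, with every tumor above every normal, and was higher by 1.64 (SE 0.31, adjusted p = 1.76e-05). IRF8, a factor of the monocyte and dendritic cell lineages, had 0.35, 0.03, -0.22 and -0.50 in the normals and -1.28 to 2.38 (median 0.00) in the tumors, a difference of 0.19 (SE 0.41, adjusted p = 0.694) that was -0.82 with the urothelial centring and -0.11 in the DESeq-normalized table. SOCS1, the feedback inhibitor of JAK kinases, had 1.13, -0.85, 0.46 and 1.47 in the normals and -1.98 to 3.22 (median -0.19) in the tumors, a difference of -0.85 (SE 0.71, adjusted p = 0.29). The groups overlapped widely for IRF8 and SOCS1, and 7 tumors lay at the lowest value of SOCS1.

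The genes of peptide supply were called higher in 3 of 4, counting the secreted LGALS3BP. PSME1 and PSME2 encode the subunits of PA28, the activator of the immunoproteasome. PSME1 had log2 values of -1.02, -0.86, -0.88 and -1.13 in normals A to D and -0.64 to 0.83 (median 0.12) in the tumors, and PSME2 had -1.48, -1.50, -1.47 and -1.98 against -1.0 to 1.37 (median 0.01). LGALS3BP, a secreted glycoprotein that binds galectins, had -1.82, -1.50, -1.74 and -2.09 in the normals and -1.06 to 1.51 (median 0.06) in the tumors. None of these 3 genes overlapped between the groups. PSME1 was 2.12-fold higher (log2 1.09, SE 0.20, adjusted p = 1.92e-05), PSME2 3.34-fold (log2 1.74, SE 0.33, adjusted p = 1.82e-05) and LGALS3BP 3.93-fold (log2 1.98, SE 0.32, adjusted p = 1.39e-06). LAP3, an aminopeptidase, read -1.13 to -0.69 in the normals and -0.75 to 1.06 in the tumors, and SP110, a nuclear body protein, read -0.68 to -0.49 and -1.32 to 0.57. Above every normal lay 27 of 29 tumors for LAP3 and 24 for SP110. LAP3 differed by 0.91 (SE 0.24, adjusted p = 0.0011) and SP110 by 0.60 (SE 0.24, adjusted p = 0.0287), both under 2-fold, and with the urothelial centring the differences were -0.09 and -0.40. SP110 no longer passed the adjusted p without normal A (0.0717), B (0.0533) or C (0.0719) or in the DESeq-normalized table (0.28).

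Genes above and beside the members in the pathway were read from a list of 105, of which 55 were in the table. Over this list 19 were called higher, 4 lower and 32 neither way, with a median change of 0.74, against 10.7% higher, 45.8% lower and a median of -0.84 over all genes. Of 4 ligands measured, 3 were called lower, against 45.8% of all genes. IFNG, the interferon of T and natural killer cells, had log2 values of 5.69, 4.64, 4.95 and 5.53 in normals A to D and -1.01 to 3.63 (median -0.40) in the tumors. IFNB1, a type I interferon, had 5.32, 4.23, 3.83 and 5.52 in the normals and 0.00 to 2.97 (median 0.00) in the tumors. Every tumor lay below every normal for both, as for 28.5% of all genes, and 14 tumors for IFNG and 18 for IFNB1 lay at the lowest value, where the normals have far fewer genes. IFNG was lower by 4.95 (log2 -4.95, SE 0.76, adjusted p = 6.76e-07) and IFNB1 by 4.11 (log2 -4.11, SE 0.47, adjusted p = 2.13e-09). IFNE, the type I interferon of reproductive tract epithelium, was lower as well (log2 -2.33, SE 0.75, adjusted p = 0.00676), and IFNK differed by -0.46 (SE 0.48, adjusted p = 0.399). The part that the unequal numbers of genes at the lowest value have in these falls was not tested.

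Of 6 listed receptor chains 2 were analysed here, neither of them from the type I receptor, and these, the JAK kinases and STAT3 stayed under 2-fold. IFNGR1 (0.80, SE 0.15, adjusted p = 1.3e-05) and IFNLR1 (0.64, SE 0.27, adjusted p = 0.0328), chains of the receptors for type II and type III interferon, passed the adjusted p alone, as did TYK2 (0.74), STAT3 (0.51) and JAK2 (0.51), whereas JAK1 (0.31) did not. SOCS3, a feedback inhibitor, was higher by 1.92 (SE 0.54, adjusted p = 0.00203). Of 9 sensors and adaptors 4 were called higher: ZBP1, a sensor of Z-form nucleic acid, by 2.32 (SE 0.94, adjusted p = 0.0289), the toll-like receptor adaptor MYD88 by 1.29 (SE 0.32, adjusted p = 0.000611), the kinase TBK1 by 1.23 (SE 0.22, adjusted p = 1.02e-05) and the RIG-I adaptor MAVS by 1.02 (SE 0.16, adjusted p = 7.62e-07). The DNA sensor cGAS (MB21D1) differed by 0.26 (SE 0.74, adjusted p = 0.767) and STING (TMEM173) by 0.50 (SE 0.37, adjusted p = 0.23). No other interferon regulatory factor was called among 5, with IRF3 at 1.00 (SE 0.21, adjusted p = 8.12e-05), just under the fold threshold.

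**Figure D2:**
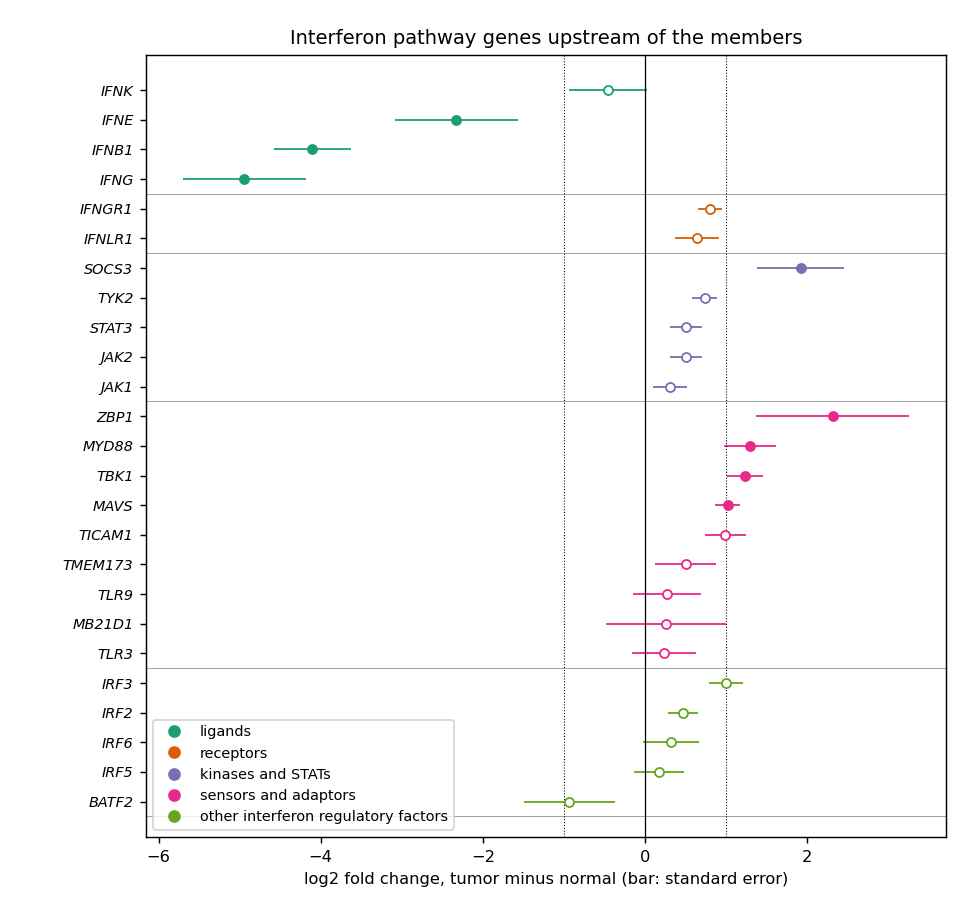
Log2 fold change of tumors over normals (x axis; dotted lines mark 2-fold) for 25 interferon pathway genes grouped by step, with bars of 1 standard error; filled points passed both thresholds and open points did not. IFNG, IFNB1 and IFNE lay at -2.33 or lower, and SOCS3, ZBP1, MYD88, TBK1 and MAVS were the filled points on the right, between 1.02 and 2.32.

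Of 30 other interferon-induced genes in the table, 14 were called higher and 1 lower, with a median change of 1.08. The 5 largest rises were those of LY6E (3.38, SE 0.99, adjusted p = 0.00316), a membrane protein, the helicase DDX60 (2.69, SE 0.69, adjusted p = 0.000912), IFIT1, which binds uncapped viral RNA (2.64, SE 1.10, adjusted p = 0.0316), the tryptophan-degrading enzyme IDO1 (2.58, SE 1.01, adjusted p = 0.0234) and the ubiquitin ligase RNF213 (2.40, SE 0.56, adjusted p = 0.000306). The fall was that of the guanylate-binding protein GBP5 (-1.66, SE 0.74, adjusted p = 0.044). Single markers of immune cells moved with the groups: of the B-cell markers 2 of 7 were lower (PAX5 and MS4A1), and of the macrophage markers 1 of 7 was higher (CD68, by 1.95). The mean relative level of the T-cell markers ran from 0.10 to 0.78 in the normals and from -1.96 to 3.10 in the tumors, and that of the macrophage markers from -0.94 to -0.06 and from -0.78 to 2.17. Their part in the group differences was not tested.

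Among the tumors the members differed greatly in how far they spread. RSAD2 spanned 229-fold and ISG15 110-fold from the lowest to the highest tumor, with SDs over the tumors at percentiles 98.6 and 97.2 of all tested genes. At the other end TRIM25 spanned 2.51-fold (percentile 21.2), PSME1 2.78-fold (percentile 23.3) and ADAR 2.93-fold (percentile 35.6). Each tumor had between 17 and 29 of the 30 members above every normal, with a median of 26. The same count per tumor was not made over all genes, so no background stands beside it. The mean relative level of the members was -1.13 to 1.64 in the tumors (median 0.18) and -1.58 to -1.24 in the normals. Tumor 15 stood lowest by the mean z of the members over tumors (-1.10), followed by tumors 10 and CH, and tumors 5 (1.45) and Sn (1.44) stood highest. Tumor 5 also had the fewest genes at the lowest value of the tumors (3699), whereas Sn had 7344, above the tumor median of 6876.

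**Figure D3:**
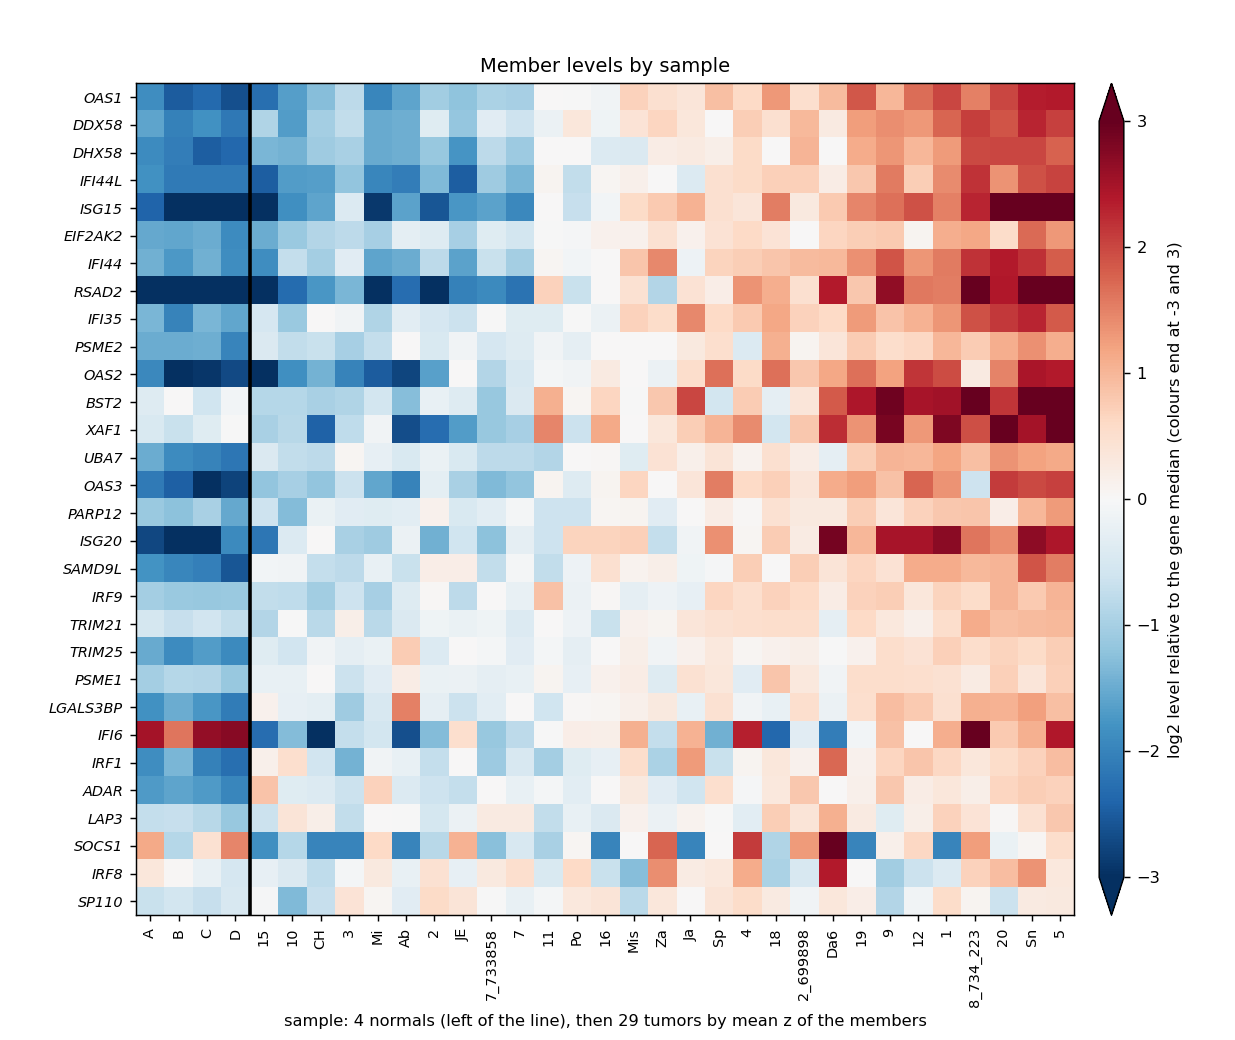
Log2 level relative to the gene median (color; the scale ends at -3 and 3) of the 30 members in the 4 normals, left of the line, and the 29 tumors, ordered by the mean z of the members from tumor 15 to tumor 5; genes are ordered by their r with the mean of the other members. Most genes change from blue to red along the tumors together, whereas the lowest 4, LAP3, SOCS1, IRF8 and SP110, with r of 0.490 or less, do not follow that order closely.

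Most members rose and fell together from tumor to tumor. Of 435 pairs of members 426 had a positive Pearson's r over the 29 tumors, with a median of 0.66, a range of -0.28 to 0.97, and 118 pairs at 0.8 or more. With the mean z of the other members, 20 members had r of at least 0.8, led by OAS1 (0.962), DDX58 (0.948) and DHX58 (0.947). The same measure was 0.8 or more in 0.183% of 24089 genes that vary over the tumors, whose median was 0.03. IRF8 (0.216), SOCS1 (0.323), SP110 (0.137) and LAP3 (0.490) lay under 0.5. IFI6, the member called lower in tumors, still had r of 0.599. The points share libraries, and the r of the members with the number of genes at the lowest value in a tumor ran from -0.43 to 0.01, with a median of -0.26.

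The 10 symbols outside the list whose pattern over the tumors was most like the mean of the members were ZBP1 (r = 0.956), RNF213 (0.929), ZNFX1 (0.909), MYD88 (0.909), ETV7 (0.892), Oasl1 (0.888), TRIM14 (0.869), ZC3HAV1 (0.867), UBE2L6 (0.857) and MB21D1 (0.856). Oasl1 is the listed OASL by its Entrez ID, and UBE2L6 is the conjugating enzyme for ISG15. ETV7 (0.31, adjusted p = 0.615) and MB21D1 (0.26, adjusted p = 0.767) were not called between tumors and normals, although they tracked the members within the tumors.

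Listed pairs of neighbouring genes, partners of one step and regulators with their targets gave 16 relations over the 29 tumors, of which 11 passed the Benjamini-Hochberg correction and 5 did not. High r was common among the members at large: over all 435 pairs of members the median r was 0.66, and 118 pairs had 0.8 or more. The highest r of ISG15 with any member was that with OAS1 (0.963), which is not a listed pair. For 9 of the pairs the permutation p of both r and rho was 1e-05, the smallest that 100000 resamples can give (adjusted p = 1.78e-05). The closest was that of the sensors DDX58 and DHX58 (r = 0.972, rho = 0.964, and r = 0.971 without the 2 tumors farthest from the median of the first gene). Of the neighbouring genes, IFI44 and IFI44L had r = 0.965 (rho = 0.950, 0.957 without 2 tumors), OAS1 and OAS2 r = 0.932 (rho = 0.930, 0.912 without 2), OAS2 and OAS3 r = 0.901 (rho = 0.923, 0.892 without 2) and PSME1 and PSME2 r = 0.863 (rho = 0.861, 0.831 without 2). ISG15 followed its activating enzyme UBA7 (r = 0.841, rho = 0.840, 0.873 without 2) and the complex parts STAT2 (r = 0.807, rho = 0.808, 0.785 without 2) and IRF9 (r = 0.798, rho = 0.761, 0.752 without 2). IRF8 followed CSF1R, the receptor for the macrophage growth factor (r = 0.790, rho = 0.842, 0.819 without 2).

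IRF1 was more loosely tied. With PSME2 its r was 0.586 (permutation p = 0.00084, adjusted p = 0.00134), its rho 0.639 (permutation p = 0.00026, adjusted p = 0.000416) and its r without 2 tumors 0.560. With ISG15 the r was 0.503 (permutation p = 0.0054, adjusted p = 0.00785), the rho 0.613 (permutation p = 0.00062, adjusted p = 0.000902) and the r without 2 tumors 0.570. The 3 pairs with IFNG did not pass: IRF1 (r = 0.175, permutation p = 0.367, adjusted p = 0.452), ISG15 (r = 0.0889, permutation p = 0.644, adjusted p = 0.687) and PSME2 (r = -0.0413, permutation p = 0.833, adjusted p = 0.833), with 14 of the 29 tumors at the lowest value of IFNG. IRF1 with SOCS1 (r = 0.308, permutation p = 0.104, adjusted p = 0.139) and with IRF8 (r = 0.118, permutation p = 0.547, adjusted p = 0.625) did not pass either.

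Against the mean z of 8 T-cell markers over the 29 tumors, 3 of the 30 members passed the correction over the 30 relations, and 3.09% of all genes had an r as high as the lowest of the 3. IRF8 had r = 0.730 (permutation p = 1e-05, adjusted p = 0.0003), rho = 0.659 (permutation p = 0.00012, adjusted p = 0.0036) and r = 0.593 without the 2 tumors farthest from the median of the marker score. SOCS1 had r = 0.659 (permutation p = 8e-05, adjusted p = 0.0012), rho = 0.581 (permutation p = 0.00112, adjusted p = 0.0168) and r = 0.616 without the 2 tumors. SP110 had r = 0.512 (permutation p = 0.00454, adjusted p = 0.0454) and rho = 0.559 (permutation p = 0.00194, adjusted p = 0.0194), but r = 0.457 (adjusted p = 0.113) without the 2 tumors. These were the 3 members least tied to the others. The median r of the members with the T-cell markers was 0.17, with ISG15 at 0.120 (permutation p = 0.532, adjusted p = 0.668) and PSME1 at -0.243 (permutation p = 0.204, adjusted p = 0.668). Against 7 macrophage markers IRF8 alone passed (r = 0.783, permutation p = 1e-05, adjusted p = 0.0003; rho = 0.750, permutation p = 1e-05, adjusted p = 0.0003; r = 0.781 without 2 tumors), with 0.407% of all genes as high. The median r of the members with the macrophage markers was 0.33, and the marker scores of T cells and macrophages had r = 0.624 with each other.

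**Figure D4:**
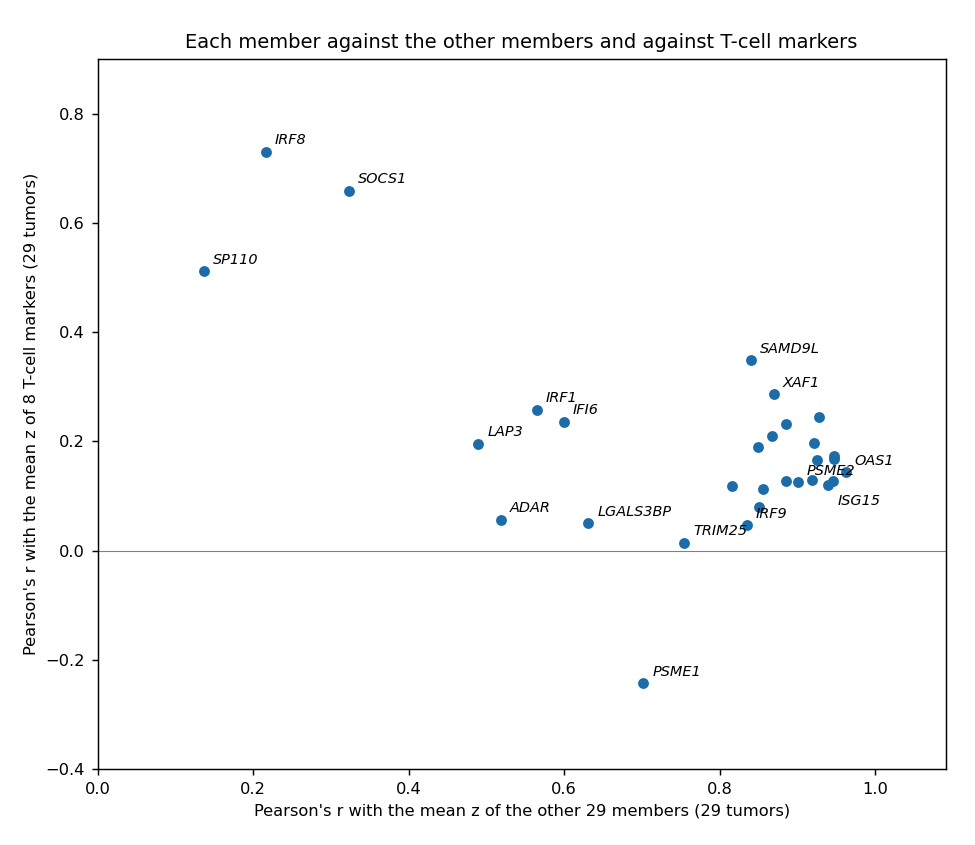
Pearson's r of each member with the mean z of the other 29 members (x axis) and with the mean z of 8 T-cell markers (y axis), over 29 tumors, 1 point per gene. IRF8, SOCS1 and SP110 stand at the upper left, with r of 0.137 to 0.323 on the x axis and 0.512 to 0.730 on the y axis, and PSME1 stands lowest at -0.243 on the y axis.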

How the data were processed

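The authors aligned paired-end reads to the canine genome (CanFam3.1) with COBWeb in Strand NGS and quantified annotated genes. The authors deposited log2 values, normalized in one table by TMM and in another by DESeq, from which each gene's median had been subtracted; the log2 scale, this centring and the shared lowest values were read from the values. The last line of each table was incomplete and was dropped. No counts were used here and depth is unknown, so the precision it gives cannot be stated; the number of genes at the lowest value is a stand-in.

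Genes above their shared lowest value in 4 samples or more, and genes with no such value, were tested. The comparison of tumors with normals used lmFit and eBayes (with a trend on the mean) of limma, version 3.58.1 (R version 4.3.3), and Benjamini-Hochberg adjustment over 24471 genes. The tests on counts that the study used could not be run on these values. The scripts were tested on simulated data, where 76 of 100 genes set to change by 2 and 83 of 100 set to change by 3 (log2) were found among 24471 genes, with 6 false calls. Correlations over tumors have two-sided permutation p-values from 100000 resamples. Other software was Python (3.11.15), numpy (2.4.6), pandas (2.3.3), scipy (1.17.1) and matplotlib (3.10.9).

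The members, pathway and marker lists and pairs were chosen with earlier results of these data known. All members found are named; pathway genes called are named where a role has 10 or fewer, otherwise the 5 largest rises and falls, along with the 10 symbols most like the members. Uncalled pathway genes given with values were chosen after the values were seen. The RefSeq gene table (another build) served for names and gene order only. Alternatives were the authors' DESeq-normalized table, no trend, a weight per group, 2 other filters, other centrings, no fold threshold, each normal left out, Spearman's rho, the number of genes at the lowest value (the stand-in for depth) regressed out and 2 tumors left out. Each tumor is from a separate dog; the normals are separate samples, and p-values measure the spread between samples. Some results on single genes are not reported here.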

Additional observations from a re-analysis of the deposited data

Results flagged for a closer look

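In 4 of the 30 members, 1 of the 4 normals stood apart from the other 3 by more than Dixon's critical value for the gap over the range, where chance gives about 1 in 20. Normal A was the highest normal for IRF9 (-1.03) and for IFI44L (-1.81). Normal D was the lowest normal for EIF2AK2 (-1.89) and for PSME2 (-1.98). In the group comparison all 4 genes were called higher in tumors without either of these normals.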

How the results depend on the processing

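The counts of 22 members higher and 1 lower ranged from 22 to 22 and from 1 to 1 when each normal was left out, and held without the trend, with a weight per group, with no filter, with only genes above the lowest value in the median, and with samples centred on such genes; with no fold threshold they were 25 and 1. The DESeq-normalized table gave 19 and 1, and there IRF8 stood at -0.11. With samples centred on all 6 urothelial markers the counts were 20 and 1, with 1529 genes higher, and IRF8 stood at -0.027. With samples centred on 5 of them, without KRT20, 6 members were higher, and IRF8 (-0.82), TRIM21 (-0.26), XAF1 (-0.14), SP110 (-0.40) and LAP3 (-0.094) changed sign; the difference of every gene moved by the same constant there, by construction. Counts over all genes with the 5 markers were 301 higher and 14529 lower, against 2615 and 11206, and 1377 higher with the DESeq-normalized table and 5603 with no fold threshold. Lower calls numbered 5543 of 18418 with only genes above the lowest value in the median, and the median change of those genes was -0.01.

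Among correlations none that passed the correction changed sign, and the number past it was 11 pairs in every alternative, 3 or 2 members with T-cell markers and 1 with macrophage markers; the one lost was SP110, also under the centring on genes above the lowest value (r = 0.503, adjusted p = 0.0541). Sign changes were IRF1 with IRF8 (rho -0.0404, r -0.170 without 2 tumors), ISG15 with IFNG (-0.0655 with depth regressed out), IRF1 with IFNG (-0.0825 without 2 tumors), T-cell markers with IRF9 (-0.000286 with depth regressed out, -0.00597 without 2 tumors) and TRIM25 (-0.0124 with depth regressed out), and macrophage markers with PSME1 (rho 0.00197, 0.0809 without 2 tumors) and ADAR (0.0429 without 2 tumors); their cause was not tested. No paired analysis was possible because the labels give the groups no shared replicate numbers. With 4 normals, dissected mucosa was set against biopsies, so group and sampling cannot be told apart.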

Other observations

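The highest and lowest tumor values of the members were counted by tumor after the values were seen, with no such count over all genes, and leaving out the lowest value of SOCS1, which 7 tumors share. Tumor Sn held the highest value of 9 members (BST2, DDX58, EIF2AK2, IFI35, ISG15, OAS2, PSME2, RSAD2 and SAMD9L). Tumor Da6 held the highest value of 5 members (IRF1, IRF8, ISG20, LAP3 and SOCS1) and also that of IFNG, at 3.63. Tumor 20 was highest for 4 members (DHX58, IFI44, OAS3 and UBA7) and tumor 5 for 4 (IRF9, OAS1, PARP12 and XAF1). Tumor 15 held the lowest value of 7 members and the highest of ADAR, at 0.85. Tumor Ab was highest for LGALS3BP (1.51) and TRIM25 (0.75) and lowest for 3 members (OAS3, XAF1 and BST2). Tumor 3 held the lowest value of 6 members and tumor 10 that of 5. The other highest and lowest values lay in other tumors, with at most 3 of either kind in any of them.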
